A study of Mus musculus with 6 samples.

Results

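Ciliated airway cells were taken from 6 single-cell RNA libraries of mouse lung by a marker rule. A cell barcode was kept if it held at least 500 genes, at least 1000 unique molecular identifiers (UMIs, each standing for 1 captured RNA molecule) and under 15% mitochondrial UMIs. A kept barcode was a member if it had a UMI of at least 3 of the 4 genes *Foxj1*, *Tmem212*, *Dynlrb2* and *Ccdc153* and no UMI of *Lamp3*, *Ptprc*, *Cdh5* or *Col1a2*, which mark alveolar type II epithelial cells (AEC2s), leukocytes, endothelium and fibroblasts. There were 1587 members among 44096 kept barcodes (3.60%) and 88578 barcodes in all. The libraries came from CD45- lung cells enriched with magnets from C57BL/6 mice of 10 to 12 weeks, 2 weeks after 4 doses of tamoxifen. The 4 control libraries came from littermates, and the alleles of those mice are not given for these libraries in the sources used here. In the study's organoid cultures, the mice set beside the knockout carried *SFTPC-CreER* and *Rosa-Tomato* without the floxed *Slc39a8*. The 2 libraries labelled Zip8 knockout came from *SFTPC-CreER Rosa26-tdTomato Zip8 fl/fl* mice, in which Cre recombinase is driven by *SFTPC*, an AEC2 gene, so that ciliated cells were not its intended target. The number of mice behind each library is not given, and the spread between libraries may be partly technical. The libraries held 93852253 to 118771907 UMIs, and the members 1396355 to 9425250 UMIs per library.

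Multiciliated cells carry many motile cilia on their apical surface and, with the mucus made by neighbouring club and goblet cells, move inhaled particles out of the airway. Each cilium is built on a basal body around a microtubule axoneme, on which outer and inner dynein arms produce the beat, radial spokes and a central pair regulate it, and intraflagellar transport carries the parts to the tip. The program is switched on by GEMC1 and multicilin, then by MYB, FOXJ1 and RFX factors, together with the amplification of centrioles through DEUP1 and CCNO.

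The targeted gene was examined first. *Slc39a8* encodes ZIP8, a zinc importer, and lies on chromosome 3 of mm10 from 135825279 to 135888572. In AEC2s, taken by their own marker rule, it was at 209.6, 179, 149 and 194 UPM (a gene's UMIs divided by all UMIs of the summed cells, times 1e6) in control libraries 1 to 4. It was at 188 and 199.7 UPM in libraries 1 and 2 labelled Zip8 knockout. The groups overlapped, so the *Slc39a8* counts did not separate the genotypes, and every direction below is between libraries as labelled. Counts of 3′ ends do not tell exons apart. Other genes separated the libraries in AEC2s as the labels do. Between genotypes 4 of 13532 genes passed edgeR's quasi-likelihood test there (0.0296%, with 0.0222% higher and 0.00739% lower). They were the 4 genes of a list for the transgenes and their loci. That list was drawn up with earlier results of these data known, so the match is not independent evidence. *Esr1*, the estrogen receptor gene whose protein lends its ligand-binding part to CreER, was at 0.306 to 0.691 UPM in AEC2s of the controls and 16.1 and 18.6 UPM in the others (log2 difference 5.23, adjusted p = 0.000453). *Sftpc* was at 127669 to 155777 UPM against 73427 and 83043 UPM (adjusted p = 0.0397), its neighbour *Bmp1* at 43.0 to 57.8 against 135 and 173 UPM (adjusted p = 0.00622), and *Gt(ROSA)26Sor* passed as well (adjusted p = 0.0397). Whether the *Esr1* UMIs came from the transgene was not tested. The alleles of the control mice are not given. In every comparison between genotypes the *Slc39a8* deletion cannot be told apart from the presence of the CreER and Rosa26 alleles. The 4 calls in AEC2s were not recomputed with a library left out, though the groups did not overlap for any of the 4 genes. In the ciliated members *Esr1* had 0 to 2 UMIs in a control library and 6 and 4 in the others, at most 0.637 UPM. In the ciliated members *Slc39a8* was at 15.04, 3.26, 5.50 and 5.99 UPM in the controls and 9.55 and 6.96 UPM in the libraries labelled knockout, on 71 and 139 UMIs in all. edgeR's quasi-likelihood test gave a log2 fold change of 0.65 with a 95% interval from −0.34 to 1.63 (Benjamini-Hochberg adjusted p = 0.649).

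The label was then checked against genes that the rule had not used. A list of 105 axonemal genes (dynein arms, their assembly and docking factors, radial spokes, central pair, nexin links and proteins inside the microtubules) was summed in each cell. In 1373 members (86.5%) these genes made up at least 1% of the UMIs, with a median of 2.23%, and secretory airway genes made up a median of 2.32%. These cells are called axoneme-rich here. In the other 214 members (13.5%) the medians were 0.382% axonemal and 50.9% secretory RNA, mainly *Scgb1a1*, the club cell secretoglobin. These secretory-rich members did not have the RNA content that the label implies, and 126 of the 214 held over 40000 UMIs, against 17 of the 1373 axoneme-rich members. Only 59 members lay between 0.75% and 1.5% axonemal RNA. The boundary at 1% was set after seeing the data, so each main result is given for all members and for axoneme-rich members. Scrublet marked 50 axoneme-rich and 10 secretory-rich members as likely doublets, and these were kept in the main results. Whether the secretory-rich barcodes held more than 1 cell was not tested further.

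**Figure D1:**
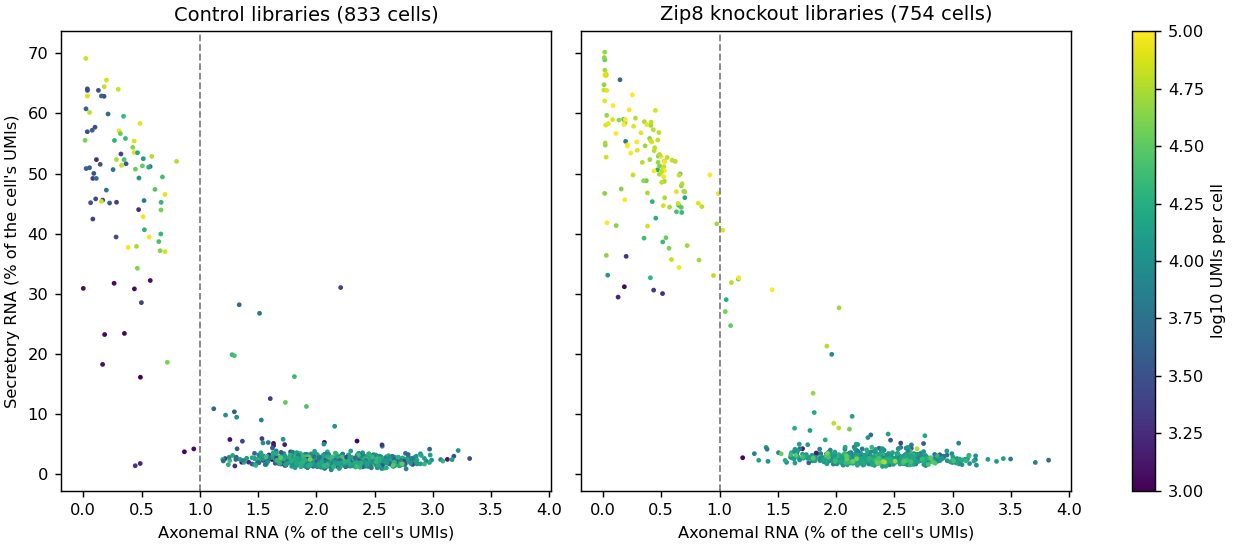
Each point is 1 member, with the share of its UMIs in 105 axonemal genes on the horizontal axis, the share in secretory airway genes on the vertical axis, and log10 UMIs as colour. The dashed line is at 1% axonemal RNA. Most of the 833 control and 754 labelled-knockout members lie to its right, near 2% secretory RNA, and 214 lie to its left, mostly above 30%.

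The secretory-rich members were unevenly spread over the libraries. They were 5.41, 11.6, 15.7 and 6.85% of the members in control libraries 1 to 4 and 21.9 and 10.3% in libraries 1 and 2 labelled Zip8 knockout. They held 19.01, 9.53, 30.6 and 16.7% of the members' UMIs in the controls and 54.2 and 36.2% in the others. The shares of cells overlapped between the groups (difference 6.23 percentage points, exact two-sided permutation test, p = 0.267), but the shares of UMIs did not. Just outside the rule, 277 barcodes without the 4 excluded genes had a UMI of exactly 2 of the 4 markers, and 4.33% of them were axoneme-rich. Just inside it, 112 members had 3 markers, of which 33.0% were axoneme-rich, and 1475 had all 4, of which 90.6% were. The condition on excluded genes left out 2658 of the 4245 kept barcodes that had at least 3 markers, most of them for a UMI of *Lamp3* or *Col1a2*. Many barcodes also occurred in more than 1 library: 809 members had a barcode present in another library, 42 had one that another library held with more UMIs, and 4 barcodes were members in more than 1 library.

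The 13 axonemal dynein heavy chains, the motors of the cilium, summed to 2623.5, 2733, 2437 and 2469 UPM in axoneme-rich members of the control libraries and 2674 and 2659 UPM in the others. These genes were among those that set the 1% boundary, which limits how far such sums can differ between libraries. Over all members the same sum was 2187, 2532, 1832 and 2176 UPM in the controls and 1463 and 1848 UPM in the others. The heavy chains summed to 11.1 ± 3.36 UPM in club cells and 9.88 ± 2.96 UPM in AEC2s (SD, n = 6 libraries). The levels that follow are those of axoneme-rich members. *Dnah5*, an outer-arm heavy chain, had the highest UPM level of the heavy chains, at 502 ± 34.5 UPM (SD, n = 6), followed by *Dnah6* at 466 ± 40.6 and *Dnah12* at 453 ± 40.1 UPM. Each UMI marks the 3′ end of a molecule, so these levels are not divided by gene length. Proteins inside the microtubules summed to 7408 ± 274 UPM, with *Cfap126* highest at 975 ± 58.4 UPM. Radial spoke and central pair genes summed to 5936 ± 192 UPM, led by *Rsph1* at 892 ± 46.2 UPM. Intraflagellar transport genes summed to 5924 ± 239 UPM, against 299 ± 32.4 in club cells and 510.5 ± 27.5 in AEC2s. The tubulin list was the most abundant of the ciliary lists at 10164 ± 546 UPM, with *Tppp3* at 3412 ± 252, *Tubb4b* at 3292 ± 141 and *Tuba1a* at 2426 ± 208 UPM. These comparisons between cell classes are descriptions with no test, since the members were chosen on ciliary genes.

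**Figure D2:**
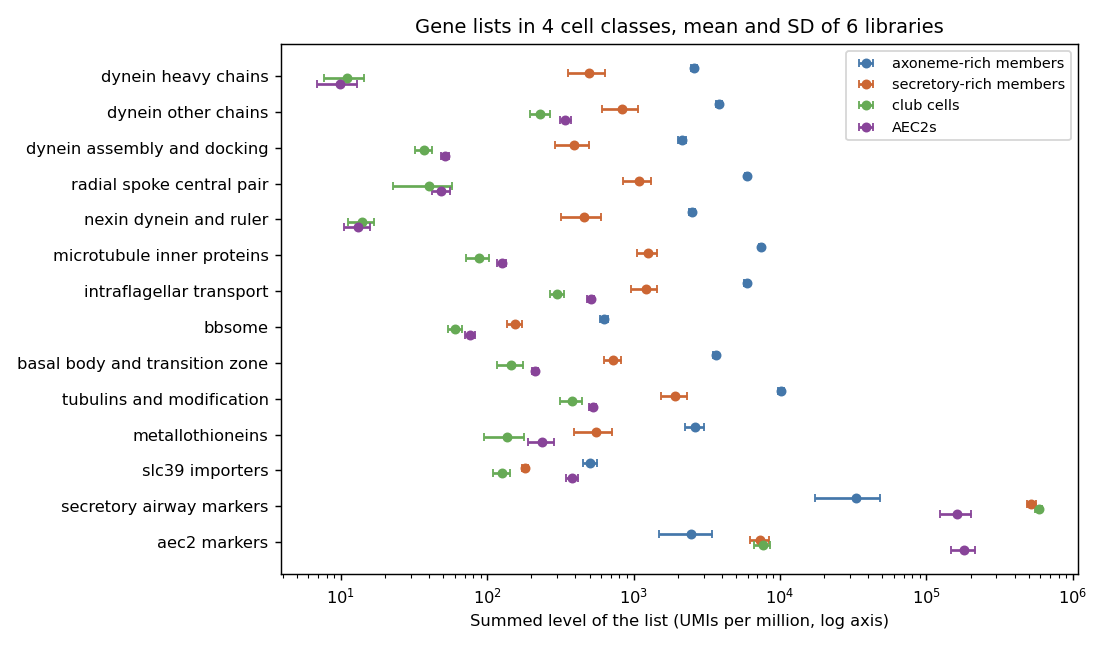
Points are the summed level of each gene list in UPM, on a log axis, as the mean of 6 libraries with SD bars, for 4 cell classes. Axonemal lists are highest in axoneme-rich members, and secretory-rich members lie between these and club cells.

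Among the regulators, *Foxj1* was at 812 ± 56.9 UPM in axoneme-rich members (SD, n = 6), but it was part of the rule. *Myb* followed at 168 ± 15.4 UPM, *Rfx3* at 96.1 ± 7.58, *Trp73* at 72.3 ± 7.56 and *Rfx2* at 52.7 ± 7.32 UPM. *Mcidas*, which encodes multicilin, was at 1.05 ± 1.01 UPM, with 0 to 3 UMIs in a control library and 8 and 11 in the others. Of the 8, 5 and 1 UMIs lay in a pair of cells high in *Top2a* described below, and of the 11, 3 and 7 did. *Gmnc*, which encodes GEMC1, was at 0.737 ± 0.771 UPM, and at 3.19 UPM in club cells. Both early regulators were close to the limit of detection in the members.

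The genes that set the members apart were ranked by margin, the mean log2 level in the members less the higher of those in club cells and AEC2s, among 2354 genes of at least 50 UPM in every library and with the 4 marker genes left out. The first 25 had margins of 6.95 to 7.44, and 226 genes had a margin of at least 5. Of the 25, 10 were in the ciliary lists, among them *Spag17* and *Dnah5*. The top 2 were *1110017D15Rik* (chromosome 4, 41505009 to 41517333), at 1395 ± 81.0 UPM in axoneme-rich members, and *Fam183b* (chromosome 11, 58792797 to 58801960), at 1360 ± 85.1 UPM. *Pcp4l1*, *Tctex1d4* and *Mlf1* came next outside the lists, at 711 ± 71.6, 541 ± 59.3 and 611 ± 30.9 UPM. *Sntn*, which encodes the cilia tip protein sentan, was at 541 ± 43.6 UPM. None of the 25 passed the test between genotypes in all members.

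RFX factors bind the X-box, so the promoters of these genes are shown where they held one. RefSeq promoter windows of GRCm38.p6 (250 bases before to 50 after each start) were searched on both strands for a loose form of the X-box and for the forkhead letters GTAAACA. The first was found in 1422 of 27025 genes with a window (5.26%) and the second in 1095 (4.05%). The X-box letters were in 7 of 10 genes matched from the dynein assembly and docking list (70.0%), in 8 of 21 genes for proteins inside the microtubules (38.1%) and in 3 of 12 dynein heavy chains. They were in 6 of 23 radial spoke and central pair genes, 2 of 9 nexin link and ruler genes, 5 of 26 intraflagellar transport genes and 8 of 23 basal body and transition zone genes. They were in 0 of 8 other dynein chains, which are also axonemal, 0 of 10 secretory genes and 0 of 8 AEC2 markers. The forkhead letters were in 3 of the 21 genes for proteins inside the microtubules, 1 of the 12 heavy chains, 1 of the 23 radial spoke and central pair genes and 2 of the 8 AEC2 markers, and in 0 genes of the other 6 lists. Of the 24 margin genes with a window, 4 held the X-box letters (16.7%) and 2 the forkhead letters (8.33%). The next 3 lines show the first 3 of these genes by margin, 30 bases each on the strand of the gene, with the X-box letters in capitals. They lie at chr1:90153515-90153544, chr16:33056187-33056216 and chr11:72361883-72361912 of GRCm38.p6, all on the minus strand, and the capitals begin at −100, −19 and −15 relative to the RefSeq start. The gene spans in the deposited annotation reach past the start used here for *Iqcg* and *Tekt1*.
*Iqca*: gccttgcaGTTGCCACGGAAACggaaacat
*Iqcg*: ttgcgcgacgcGTTGCCATAGCTACcgatt
*Tekt1*: cgttgcgtccgtccgGTTGCCATAGAGACc
*Tekt1* encodes tektin 1, a filament protein of the microtubule doublet, at 397 ± 27.2 UPM. *Iqcg*, a subunit of the nexin-dynein regulatory complex, was at 339.5 ± 29.5 UPM, and *Iqca* at 332 ± 19.9 UPM. A match describes these letters only and does not show that a factor binds.

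Ciliated members were a larger share of the kept barcodes in the libraries labelled Zip8 knockout. The share was 1.52, 2.44, 3.29 and 2.86% in control libraries 1 to 4, on 111, 232, 242 and 248 members. It was 7.03 and 6.35% in libraries 1 and 2 labelled knockout, on 415 and 339 members. Both of these lay above every control library. The means were 2.53 ± 0.754% (SD, n = 4) and 6.69%, a ratio of 2.65, and the exact two-sided permutation test gave p = 0.0667, the smallest value that 15 splits of 6 libraries allow. Axoneme-rich members alone were at 1.44, 2.16, 2.77 and 2.66% against 5.49 and 5.69%. With no limit on the 4 excluded genes, axoneme-rich barcodes were at 3.03, 4.38, 4.67 and 4.48% against 8.11 and 9.25%. The share depends on which other cells were recovered, and numbers of cells per lung cannot be told apart from recovery in these data. Among barcodes with a UMI of *Epcam*, an epithelial surface marker, the share was 3.11 to 8.40% in the controls and 11.4 and 11.1% in the others (exact permutation test, p = 0.133). Among the sum of ciliated, club and AEC2 cells the groups overlapped, at 4.99 to 23.2% against 14.8 and 17.9% (exact permutation test, p = 0.533).

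**Figure D3:**
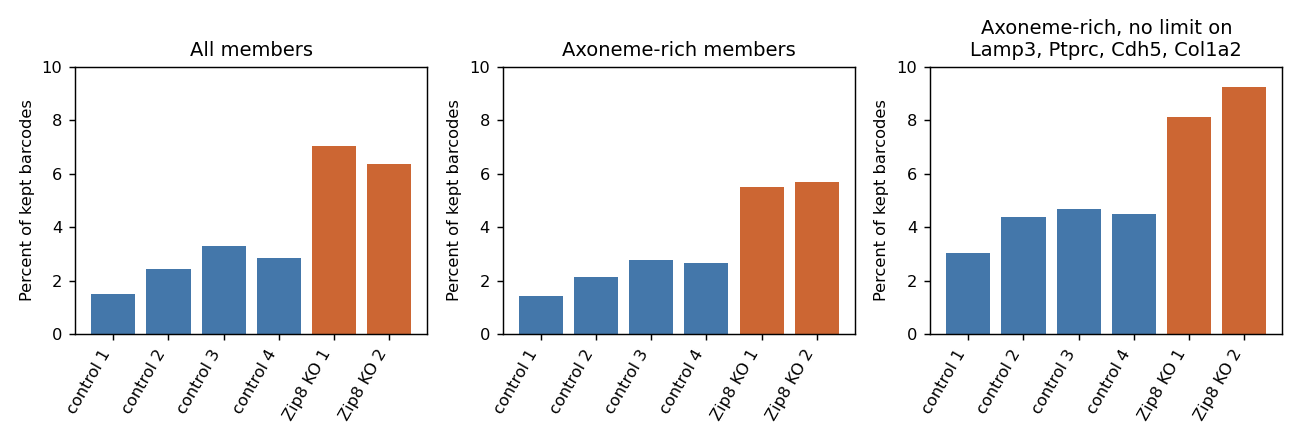
Bars give the percent of kept barcodes in each library that were members (left), axoneme-rich members (middle) and axoneme-rich barcodes with no limit on the 4 excluded genes (right), in blue for control and orange for libraries labelled Zip8 knockout. Both orange bars stand above all 4 blue bars in each panel.

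The median depth of a member did not follow the labels, but the mean depth did. The mean UMIs per member were 12580, 14557, 17287 and 10770 in control libraries 1 to 4. They were 22711 and 20755 in libraries 1 and 2 labelled knockout, above every control library. The median UMIs per member were 9926, 15149, 13919 and 8366.5 in the controls and 12505 and 13615 in the others (exact permutation test, p = 0.733). The median mitochondrial share was 5.11 to 6.42% in the controls and 6.09 and 5.91% in the others.

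Gene levels were compared between genotypes in sums of all members per library, over 11396 genes, with edgeR's quasi-likelihood test and Benjamini-Hochberg adjustment. At an adjusted p under 0.05, 4 genes were higher and 1 was lower in the libraries labelled knockout, which is 0.0439% of the genes tested (0.0351% higher, 0.00878% lower), and 1209 had an unadjusted p under 0.05. The same test in simulated data with no changed gene called 3 genes. In axoneme-rich members 6 genes were higher and 1 was lower, 0.0629% of 11126 genes (0.0539% higher, 0.00899% lower), with 863 at an unadjusted p under 0.05. *Top2a* and *Gstp2* passed in both. *Krtap17-1* passed in all members and was too low to be tested in axoneme-rich ones, where *Kcnrg*, *Agr2*, *Ccna1* and *Ckap2l* passed in addition. The difference between these sets of cells was not tested. The count in all members was 0 without control library 1, control library 4 or library 1 labelled knockout, 1 without control library 3 and 163 without library 2 labelled knockout. In axoneme-rich members it was 1 without library 1 labelled knockout (*Top2a*) and 74 without library 2.

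*Kcnrg*, which encodes a regulator of potassium channels, lies on chromosome 14 from 61607457 to 61612826. In axoneme-rich members it was at 49.5, 39.3, 28.3 and 41.3 UPM in the controls and 91.9 and 85.7 UPM in the others, with no overlap. The difference was 1.22 on the log2 scale (standard error 0.15, adjusted p = 0.00961). In all members the levels were 42.3, 36.7, 21.3 and 35.9 UPM against 51.1 and 59.4 UPM, and the gene did not pass (adjusted p = 0.134). A UMI was found in 29.0% of control and 58.1% of labelled-knockout axoneme-rich members. *Kcnrg* was close to absent elsewhere, at 0.230 UPM in club cells and 0.205 UPM in AEC2s. Its neighbour *Trim13*, chosen after its values were seen, lies from 61598247 to 61605946 and had a log2 fold change of −0.67 in axoneme-rich members (adjusted p = 0.355). *Sftpc*, the mouse gene named in the Cre allele, is on this chromosome too. Within 10 Mb of it the libraries did not overlap for 20 of 91 genes (21.98%), against 17.3% on other chromosomes, and in axoneme-rich members for 13 of 90 (14.4%) against 15%. An unadjusted p under 0.05 was found for 18 of the 91 (19.8%) against 10.6% on other chromosomes, and for 11 of the 90 (12.2%) against 7.73%. Elsewhere on chromosome 14 the libraries did not overlap for 16.1% of genes in all members and 14.5% in axoneme-rich ones. An unadjusted p under 0.05 was found there for 9.12% and 6.38%. In all members 1 of the 91 genes passed the adjusted threshold, against 4 of 11000 on other chromosomes. In axoneme-rich members 2 of the 90 passed, against 5 of 10734. The window was chosen after the called genes were seen, and these shares are given with no test.

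*Gstp2* was the gene that fell. It encodes a pi-class glutathione S-transferase, which conjugates glutathione to reactive compounds, and lies on chromosome 19 from 4040285 to 4046023. In all members it was at 53.7, 53.002, 53.3 and 58.0 UPM in the controls and 11.99 and 22.5 UPM in the others. The controls lay close together and above both other libraries. The difference was −1.43 on the log2 scale (standard error 0.17, adjusted p = 0.0397), and −1.34 in axoneme-rich members (standard error 0.15, adjusted p = 0.00805). *Gstp2* shares sequence with the other *Gstp* genes, and how the counting divided such reads is uncertain. In club cells the log2 fold change was −1.53 and in AEC2s −1.10, neither past the threshold (adjusted p = 0.792 and 0.558).

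*Top2a*, a topoisomerase of dividing cells, was at 0.716, 1.18, 0.956 and 1.498 UPM in the controls and 7.002 and 11.1 UPM in the others. The log2 difference was 3.23 (standard error 0.33, adjusted p = 0.0256) in all members and 3.48 (standard error 0.30, adjusted p = 0.00169) in axoneme-rich ones. The UMIs lay in few cells: 38 of the 66 in library 1 labelled knockout and 57 of the 78 in library 2 came from 1 cell each. No control member held as many as 5 *Top2a* UMIs, and 5 members of the libraries labelled knockout did. Without these 5 cells the level was 1.84 and 1.73 UPM, on 17 and 12 UMIs, still above the highest control value. No fit of axoneme-rich members left out all 5. The 2 cells with the most *Top2a* also held 41 and 36 UMIs of *Deup1*, 17 and 33 of *Ccno*, 18 each of *Cdk1* and 0 and 2 of *Mki67*, with 1.92 and 2.02% axonemal RNA. All 5 cells were deep, at 48866 to 63562 UMIs, and held 7.62 to 27.6% secretory RNA, above the axoneme-rich median of 2.32%. Whether they held more than 1 cell was not tested beyond the Scrublet scores. *Ccna1*, cyclin A1, had 38 of 122 and 41 of 54 UMIs in 1 cell each, and *Ckap2l*, a spindle protein, 25 of 35 in 1 cell of library 2. In axoneme-rich members their log2 fold changes were 3.36 (standard error 0.49) and 2.65 (standard error 0.39), both at an adjusted p of 0.0445. *Ccna1* did not pass without control library 1, 2 or 3 or library 1 labelled knockout, and *Ckap2l* did not pass with any 1 of the 6 libraries left out.

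*Agr2*, a disulfide isomerase of mucus-producing cells, was at 3.54, 4.58, 2.07 and 2.25 UPM in axoneme-rich control members and 16.9 and 18.3 UPM in the others. It differed by 2.49 on the log2 scale (standard error 0.29, adjusted p = 0.00805), with 61 of the 82 UMIs of library 2 in 1 cell. In club cells *Agr2* was higher, at 41.6 UPM, and in AEC2s it was at 10.6 UPM. The part of secretory RNA in its difference was not tested. In all members *Krtap17-1*, a keratin-associated protein gene, differed by 3.46 on the log2 scale (standard error 0.44, adjusted p = 0.0397). It was at 30.4 UPM in club cells against 11.1 UPM in members. Of its UMIs, 177 of 188 in library 1 labelled knockout and 246 of 255 in library 2 lay in secretory-rich members. By unadjusted p the next gene that was higher was *Rasl11a*, with a log2 fold change of 1.54 (adjusted p = 0.0977). The next that were lower were *Slc6a14* (−0.55), *Igfbp2* (−1.10), *Lfng* (−0.51) and *Eln* (−1.71), with adjusted p from 0.187 to 0.247.

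**Figure D4:**
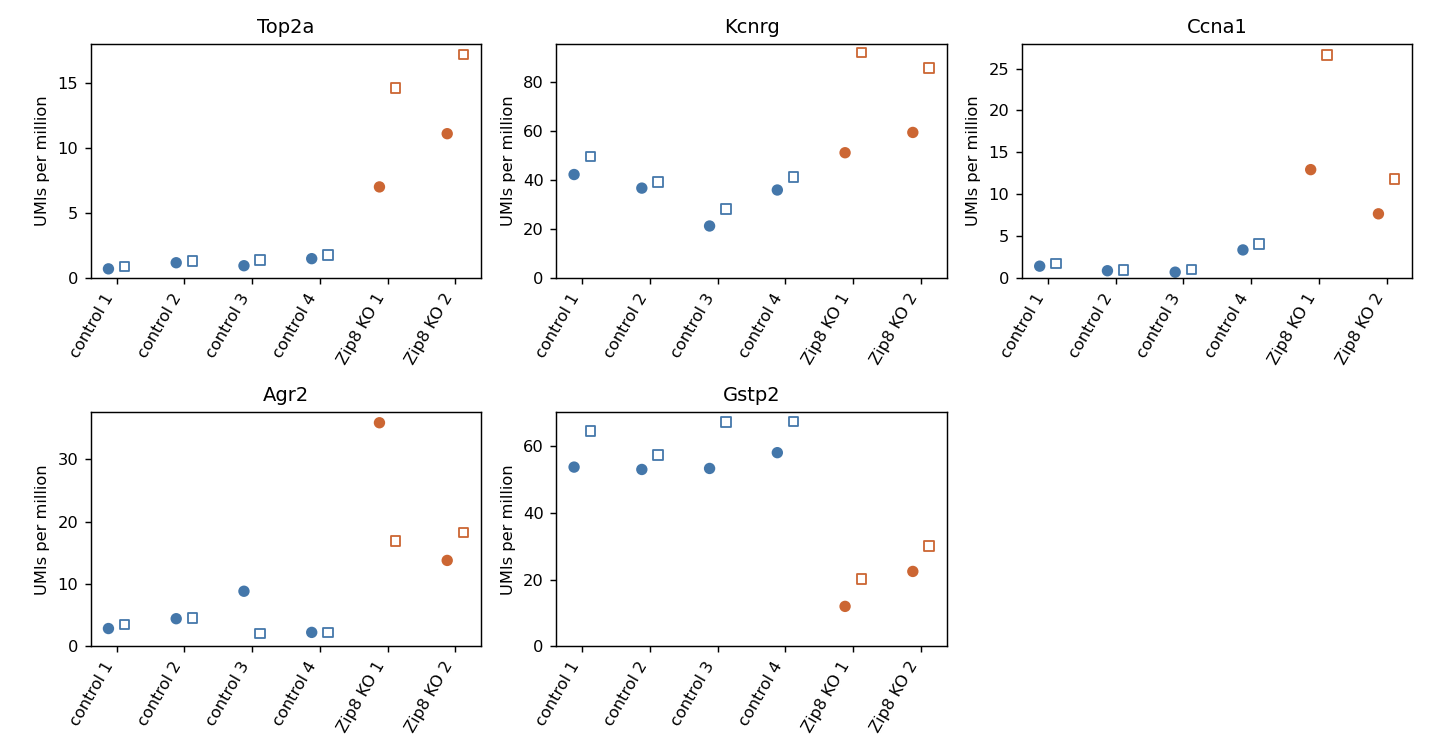
Levels of 5 genes in each library in UPM, with filled circles for all members and open squares for axoneme-rich members, blue for control and orange for libraries labelled Zip8 knockout. *Kcnrg* is higher and *Gstp2* is lower in both orange libraries than in every blue one.

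No gene of the ciliary lists passed the test between genotypes. In axoneme-rich members the median log2 fold change was 0.06 over 11 tested dynein heavy chains, 0.14 over 16 assembly and docking factors, 0.09 over 27 radial spoke and central pair genes, 0.06 over 26 proteins inside the microtubules and 0.03 over 31 intraflagellar transport genes. The median of all 11126 genes was −0.01. Libraries did not overlap for 15% of all genes (7.35% higher, 7.64% lower). They did not overlap for 4 of the 11 heavy chains, 3 of them higher. Nor did they for 8 of the 27 radial spoke and central pair genes, 7 of them higher, or for 3 of the 31 transport genes, all higher. All the lists named here but the transport genes helped to set the 1% boundary, which limits how far they can differ between libraries. In all members the background is 9.06% higher and 8.25% lower. There 0 radial spoke and central pair genes were higher and 5 of 27 lower, 0 transport genes were higher and 5 of 31 lower, and 0 heavy chains were higher and 1 of 12 lower. The counts for heavy chains in all members and for transport genes in axoneme-rich ones are near the background. In all members the medians of the same lists were −0.12, −0.03, −0.10, −0.11 and −0.14, so their sign differed between the 2 sets of cells. Secretory-rich members held 9.53 to 30.6% of the members' UMIs in the controls and 54.2 and 36.2% in the others. Their part in this change of sign was not tested. *Cfap61*, a radial spoke gene, had the largest positive change of its list, 0.32 (standard error 0.11, adjusted p = 0.514). *Dynlt1b*, a light chain shared with other dyneins, had the largest negative change of its list, −0.93 (standard error 0.29, adjusted p = 0.504). Of the centriole amplification genes, *Ccno* differed by 0.71 (standard error 0.22) and *Deup1*, listed as *Ccdc67*, by 0.40 (standard error 0.12). Neither overlapped between groups and neither passed (adjusted p = 0.497 and 0.488).

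No gene of the secretory marker list, which does not hold *Agr2*, passed the test. In all members 15 of 15 tested secretory markers had a positive log2 fold change, with a median of 1.51 against 0.00 for all genes, 0 past the threshold, and 6 without overlap between groups, where the background is 9.06% of all genes in that direction, 8.25% in the other and 17.3% in either. The summed level was 136853, 66413, 170860 and 97537 UPM in the controls and 314145 and 213909 UPM in the others. In axoneme-rich members it was 31939, 19441, 28163 and 20689 UPM against 61862 and 35366 UPM, and 12 of 15 were positive. There 2 of the 15 were higher without overlap, where the background is 7.35% of all genes in that direction. *Scgb1a1* was the most abundant, and its log2 fold change was 1.54 in all members and 1.62 in axoneme-rich ones (adjusted p = 0.295 and 0.183). *Muc5ac*, a goblet cell mucin, was near 0, at 0.270 UPM in axoneme-rich members. Whether this RNA came from the cells or from free RNA was not tested.

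Markers of other cells were also uneven. AEC2 markers had a positive log2 fold change for 9 of 10 tested in all members, with a median of 0.72 and 4 of them higher without overlap, against 9.06% of all genes. In axoneme-rich members 9 of 10 were positive, with a median of 0.51 and 0 without overlap, against 7.35% higher among all genes. Their summed level was 4638, 1664, 3898 and 3931 UPM in all members of the controls and 5034 and 3387 UPM in the others, with *Sftpc* the most abundant and *Lamp3* at 0 by the rule. Flat alveolar (AEC1) markers were positive for 3 of 6 in all members and 0 of 5 in axoneme-rich ones. Mesenchymal markers, with 0 of 7 positive and 3 of 7 lower without overlap (8.25% of all genes), summed to 405, 796, 323 and 286 UPM in the controls and 94.4 and 227 UPM in the others, with *Mgp* the most abundant. *Col1a2* was at 0 by the rule. Erythroid markers were at 1267 UPM in control library 4 and at 8.70 to 179 UPM in the other 5. Endothelial markers were at 22.9 to 40.3 UPM in the controls and 34.4 and 28.1 UPM in the others. Markers of leukocytes were at 63.7 to 86.1 UPM and at 90.3 and 57.6 UPM. The part of these RNAs in the differences above was not tested.

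Of the zinc genes, 4 of 14 *Slc39* importers, 1 of 10 *Slc30* exporters and 4 of 4 genes of the metallothionein list had a mean log2(UPM + 1) in axoneme-rich members more than 1 above that in both club cells and AEC2s, given with no test. *Slc39a4*, which encodes the importer ZIP4, was the most abundant of the 14 *Slc39* genes in axoneme-rich members, at 348, 291, 246 and 313 UPM in the controls and 326 and 263 UPM in the others. It was at 19.9 ± 2.28 UPM in club cells and 41.1 ± 7.52 UPM in AEC2s (SD, n = 6). *Slc39a9* followed at 61.9 ± 5.69 UPM and *Slc39a7* at 35.7 ± 4.81 UPM, and the SDs of *Slc39a7* and *Slc39a10* (30.7 ± 3.14 UPM) overlapped. *Slc39a8* was at 5.26 ± 4.15 UPM, against 186.5 ± 20.9 UPM in AEC2s. A UMI of it was found in 6.67, 3.41, 2.94 and 3.03% of axoneme-rich members in control libraries 1 to 4. The share was 6.17 and 6.25% in the others, and the groups overlapped through control library 1. *Mt1*, a zinc-binding metallothionein, was at 2020 ± 329 UPM in axoneme-rich members, 102 UPM in club cells and 184 UPM in AEC2s. *Mt3* was at 157 ± 77.4 UPM, against 0.831 UPM in club cells and 0.887 UPM in AEC2s. None of the 11 tested *Slc39*, 6 *Slc30* or 4 metallothionein-list genes passed the test, and their median log2 fold changes in all members were 0.08, 0.07 and −0.13. *Slc39a4* changed by −0.16 in all members, and in axoneme-rich ones its 95% interval ran from −0.29 to 0.28.

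**Figure D5:**
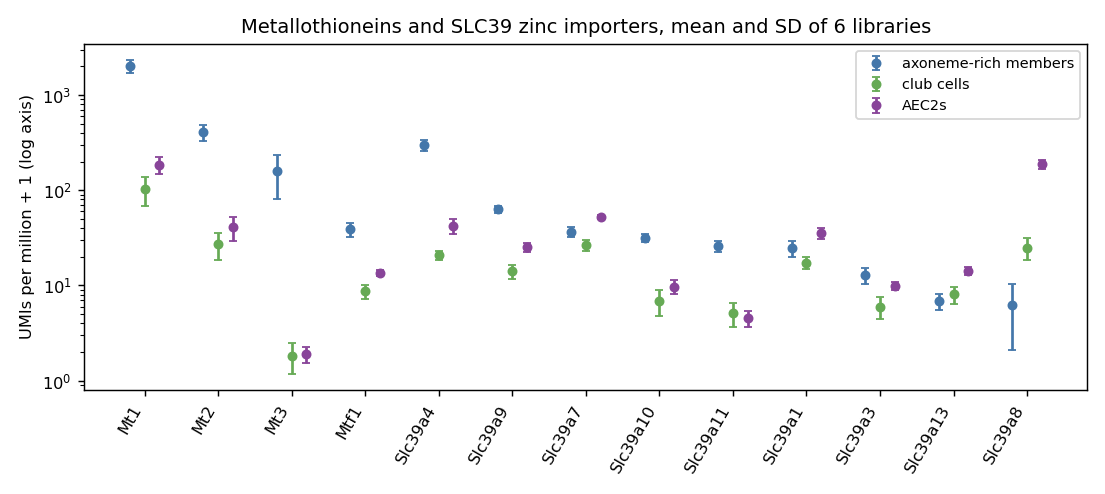
Levels of metallothionein-list and *Slc39* genes of at least 5 UPM in axoneme-rich members, in 3 cell classes, as the mean UPM of 6 libraries plus 1 on a log axis with SD bars. *Mt1* and *Slc39a4* are highest in axoneme-rich members and *Slc39a8* is highest in AEC2s.

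The other genes that the study followed did not pass in the members. *Sirt1*, a deacetylase, was at 22.05, 24.6, 22.4 and 25.2 CPM (the same unit after edgeR scaling) in the controls and 25.3 and 21.8 CPM in the others, a log2 fold change of −0.01 (standard error 0.13). *Chil1*, a chitinase-like protein, was at 61.5, 11.01, 5.65 and 8.29 CPM in the controls and 356 and 47.7 CPM in the others (log2 fold change 3.57, adjusted p = 0.265). The groups overlapped through control library 1. *H2-K1*, an MHC class I gene, changed by 0.35 (adjusted p = 0.496), *Abca3* by 0.36 (adjusted p = 0.455), *Sftpc* by −0.61 (adjusted p = 0.540) and *Pdpn* by 0.01 (standard error 0.76).

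The genes that varied most among members of 1 library were read from their variance relative to the mean. After each cell was thinned to 2000 UMIs, *Scgb1a1* had a variance 699 times its mean (median of 6 libraries) among all members and 95.4 times among axoneme-rich ones, against a median of 1.02 over 2712 genes in the latter. *Gm42418*, a predicted non-coding RNA gene, came next in both sets, at 30.3 and 30.9 times. *Sftpc* was the fifth in all members, at 8.07 times. *Malat1*, a nuclear RNA, was at 11.5 times and *S100a6*, a calcium-binding protein, at 6.55 times in axoneme-rich members. *Cyp2a5*, a cytochrome P450, *Cbr2*, a carbonyl reductase, and *Id1*, an inhibitor of basic helix-loop-helix factors, were among the first 15, at 4.03, 4.01 and 3.97 times, and no gene of the axonemal lists was. At the same depth, 2 or more of 6 centriole amplification genes (*Deup1*, *Ccno*, *Cdc20b*, *Mcidas*, *Plk4*, *Myb*) had a UMI in 0.909, 5.24, 1.71 and 3.35% of members in the controls and in 2.19 and 3.28% in the others (exact permutation test, p = 0.933), with 1 to 22 shallower cells left out in a control library and 4 in each other. In axoneme-rich members, thinned by another random draw, the shares were 1.92, 3.17, 3.98 and 4.46% against 5.90 and 4.32% (p = 0.2 by the same exact permutation test). Without thinning the shares were 31.0 to 44.6% and 41.9 and 43.9%. The sign of the difference turned in 7 of 10 alternatives, and no direction is read from it. In club cells at the same depth the share was 0 in every library.

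The genotype difference in ciliated members was set against that in club cells and in AEC2s of the same libraries, with the library as a block. Against club cells 4 of 11809 genes passed (0.0339%, with 0.0254% higher and 0.00847% lower). Against AEC2s 9 of 13461 passed (0.0669%, with 0.0446% higher and 0.0223% lower). With 1 library left out these counts ran from 0 (control library 1) to 58 (control library 3) and from 2 (library 1 labelled knockout) to 86 (library 2 labelled knockout). *Agr2* had a log2 fold change of 2.58 in all members, which did not pass there (adjusted p = 0.247), −0.10 in club cells and −0.32 in AEC2s. The difference was 2.69 on the log2 scale against club cells (standard error 0.37, adjusted p = 0.0275) and 3.13 against AEC2s (standard error 0.23, adjusted p = 0.000458). Of its UMIs in all members, 127 of 338 in library 1 labelled knockout and 61 of 97 in library 2 came from 1 cell each. In axoneme-rich members the differences were 2.70 (adjusted p = 0.000466) and 3.21, the latter not past the threshold (adjusted p = 0.185). *Cxcl5*, a neutrophil chemokine, differed by 4.65 and 3.22 (adjusted p = 0.0409 and 0.00505), on 311 UMIs in members of library 1 labelled knockout and 27 in those of library 2. In axoneme-rich members, where library 2 labelled knockout was at 0 UPM, neither difference passed (4.27 and 2.68, adjusted p = 0.232 and 0.423). *Cldn18*, a tight junction claudin of alveolar cells, differed by −2.75 against club cells (standard error 0.31, adjusted p = 0.00586), and by −2.57 in axoneme-rich members (adjusted p = 0.000567). Its log2 fold change was −0.65 in members and 2.03 in club cells. *Cdkn1a*, the p53 target p21, and *Phlda3*, another, had a positive genotype effect in AEC2s that did not pass there (log2 fold changes of 1.32 and 1.54, adjusted p = 0.135 and 0.355) and a value near 0 or below in the members. In AEC2s *Cdkn1a* was at 40.2, 56.6, 36.0 and 53.5 UPM in the controls and 132 and 112 UPM in the others. In axoneme-rich members it was at 227, 220, 233 and 246 UPM and 226 and 244 UPM, and the difference against AEC2s was −1.26 (adjusted p = 0.0373). In all members it was −1.39 (standard error 0.18, adjusted p = 0.0241). *Phlda3* differed by −1.85 in all members (standard error 0.23, adjusted p = 0.0218) and by −1.62 in axoneme-rich ones (adjusted p = 0.0153). *Gt(ROSA)26Sor*, the transcript of the locus that carries the tdTomato reporter, was at 5.37 to 8.12 UPM in AEC2s of the controls and 15.7 and 17.6 UPM in the others. In axoneme-rich members it was at 21.0 to 40.7 and 30.1 and 29.6 UPM, and the difference was −1.19 (adjusted p = 0.0459). In all members it was −1.28 (standard error 0.18, adjusted p = 0.0406).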

How the data were processed

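Per the file headers and the study's methods, the authors made the deposited UMI counts per gene and barcode from 10x 3′ reads with Cell Ranger 3.1.0 on mm10. The counts are raw and were used as deposited, over 27998 genes. Barcodes were kept and members chosen by the rule given in the report. Club cells and AEC2s were chosen by marker rules of the same form. Doublets were scored with Scrublet at 0.8% per 1000 kept barcodes and left in, and leaving them out was an alternative. Counts were summed over the members of each of 6 libraries (4 control, 2 labelled Zip8 knockout) and fitted with edgeR 4.0.16 quasi-likelihood tests (R 4.3.3, limma 3.58.1), TMM scaling, a filter on low counts and Benjamini-Hochberg adjustment at 0.05. Differences from club cells or AEC2s were interaction terms with the library as a block. DESeq2 1.42.0 was an alternative. Shares and medians were compared by exact two-sided permutation of the library labels (scipy 1.17.1). Python 3.11.15 with numpy 2.4.6, pandas 2.3.3, scanpy 1.11.5 and matplotlib 3.10.9 was used.

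In simulated data for the genotype comparison, over 11205 genes, edgeR recovered 71 of 100 genes changed by 1 on the log2 scale and 94 of 100 changed by 3, with 8 false calls, and it made 3 false calls over 11257 genes when none was changed. In the interaction against club cells 21 and 77 of 100 were recovered, and against AEC2s 41 and 87.

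Members, gene lists and tests were chosen with earlier results of these data known, and no list is independent evidence. The text names the rule's 8 genes, the targeted gene and the genes the study followed, the first 5 genes by p in each direction, the first 25 by margin, and list members. Genes called in axoneme-rich members and *Trim13* were added after their values were seen. Some genes that passed a test are counted but not reported here. Same-numbered libraries deviated from their group means with correlations of 0.0454 and 0.138 over 11396 genes, and the numbers were not taken as pairs.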

Additional observations from a re-analysis of the deposited data

Results flagged for a closer look

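*Chil1* in control library 1 was at 61.5 CPM in the ciliated members, and the other 3 control libraries lay between 5.65 and 11.01 CPM. The gap to the nearest library exceeded Dixon's critical value for 4 samples. Of 26 sets of control values examined this was the only one so marked, and chance marks about 1 in 20.

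Among the 4 genes whose genotype difference was unlike that in club cells, *Agr2* differed by 2.69 on the log2 scale (adjusted p = 0.0275) by the interaction term of the edgeR fit (quasi-likelihood, Benjamini-Hochberg). *Cxcl5* differed by 4.65 (adjusted p = 0.0409) and *Cldn18* by −2.75 (adjusted p = 0.00586). In axoneme-rich members *Cxcl5* did not pass (adjusted p = 0.232).

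Against AEC2s 9 genes were marked by the same test. *Agr2* differed by 3.13, *Cxcl5* by 3.22, *Itln1*, a lectin, by 3.38, *Rasl11a* by 1.55 and *Emp1*, a membrane protein, by 1.80, each with the more positive genotype effect in the members. *Phlda3* differed by −1.85, *Cdkn1a* by −1.39 and *Gt(ROSA)26Sor* by −1.28. The adjusted p ran from 0.000458 for *Agr2* to 0.04999 for *Rasl11a*. *Itln1* had 7481 UMIs in members of library 1 labelled knockout, 0 in library 2 and 0 to 56 in the controls. In axoneme-rich members *Agr2*, *Cxcl5*, *Rasl11a* and *Emp1* differed by 3.21, 2.68, 0.81 and 0.78 and did not pass (adjusted p = 0.185, 0.423, 0.577 and 0.698). *Rasl11a* was at 11.9 UPM in axoneme-rich members, 93.0 in secretory-rich ones, 117 in club cells and 140 in AEC2s. *Emp1* was at 5.27, 40.0, 56.6 and 18.8 UPM in the same order.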

How the results depend on the processing

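The share of ciliated members and their median depth kept their direction in every alternative run. The number of genes past the threshold between genotypes did not. Against 5 in all members, it was 49 with DESeq2, 17 with scaling by total UMIs only, 331 with no filter on low counts and 120 with the replicate number as a block. It was 0 with at least 2 of 4 markers, 0 with no limit on the 4 excluded genes (958 at an unadjusted p under 0.05), and 1 with that limit dropped and at least 1% axonemal RNA. It was 3 without barcodes that another library held with more UMIs, 1 after thinning to 2000 UMIs and 3 without members that had club markers. Leaving out 1 library gave 0 to 163, with 0 without control library 1, control library 4 or library 1 labelled knockout, 1 without control library 3, and 163 without library 2 labelled knockout. In axoneme-rich members the count was 7, and 29 with DESeq2, 138 with no filter, 52 with the replicate block and 1 to 74 with 1 library left out. There *Top2a* passed in 10 of 10 settings, and *Gstp2*, *Agr2* and *Kcnrg* in 9 of 10, lost without library 1 labelled knockout. *Ccna1* passed in 6 of 10 and *Ckap2l* in 3 of 10, with adjusted p up to 0.552 and 0.597. In all members *Top2a* passed in 11 of 18 settings, *Gstp2* in 12 of 20 and *Krtap17-1* in 9 of 17, with no change of sign. Against club cells 4 genes became 8 in axoneme-rich members, 243 with no filter and 0 to 58 with 1 library left out. Against AEC2s 9 became 434 with total UMIs only, 318 with no filter and 2 to 86 with 1 library left out. Against club cells *Agr2* passed in 6 of 9 settings, *Cxcl5* in 4 and *Cldn18* in 7. Against AEC2s *Agr2* passed in 8 of 9, *Cxcl5*, *Phlda3* and *Cdkn1a* in 7 each, *Itln1* in 6 and *Gt(ROSA)26Sor* in 4. None of these differences changed sign. With total UMIs only, the median log2 fold change of all genes was −0.28 in all members and −0.01 in axoneme-rich ones. The difference in the share with centriole amplification genes, −0.0643 points, was 6.54 without thinning, 0.489 with all 4 markers, 0.621 with at least 2, 1.72 in axoneme-rich members, and −0.695 to 0.748 with 1 library left out. Each set of cells was thinned by its own random draw, so these values differ by the draw as well as by the cells. The cause of these shifts was not tested. The small number of libraries limits every p, and low genes rest on few UMIs. No setting in axoneme-rich members left out all 5 cells high in *Top2a*.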
